A study of Arabidopsis thaliana with 6 samples.

Results

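The bZIP transcription factors of Arabidopsis were compared between wild type and plants that overexpress EsANAC029. This gene comes from Elymus sibiricus, a grass, and codes for a transcription factor of the NAC family. The bZIP factors were taken by the family mark that the deposited table gives beside each gene, which reads bZIP for 584 of 32962 genes. HY5 and HYH were left out, which gave 582 genes. The annotation of the same table names a bZIP factor or bZIP domain, or a published bZIP name applies, for 77 of the 582, and the other 505 are annotated as something else. The family mark therefore goes against the label for most of the genes it marks, and "bZIP genes" below means the 77, while the 505 are described at the end. One of the 77, AT2G04137, is also annotated as a dehydrogenase and overlaps bZIP48, and it is listed at 0 in all libraries.

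Seedlings aged 25 days, kept at 25 °C in days of 16 h light and 8 h dark, gave 3 libraries of wild type (Col-0, untransformed) and 3 of EsANAC029-OE. The promoter that drives the transgene, the number of independent lines and whether plants were pooled or replicates grown apart are not stated in the sources used here. The p-values therefore measure only the spread between these samples, which may be technical. The transgene's own level was not analysed here. The libraries held 19608819 to 21715274 reads in genes, and a floor of 3 reads is 0.138 to 0.153 CPM, for counting error only. Values are FPKM, fragments per kilobase of gene, scaled to an effective library size. EsANAC029-OE replicate 1 stood apart, with correlations of 0.691 to 0.734 with wild type over tested genes, against 0.857 to 0.899 for replicates 2 and 3. The 4 leaf markers (RBCS1A, RBCS3B, RCA and LHCB1.1) summed to 25319 to 31110 FPKM in wild type and to 2244, 8549 and 14937 FPKM in overexpressor replicates 1, 2 and 3. The 6 root markers summed to 8.21 to 42.3 FPKM in wild type and to 9.997, 291 and 13.6 FPKM in the overexpressor, so replicate 2 was high, through PYK10 and DR4. The 3 seed markers were listed at 0 throughout, and the 5 flower markers summed to 0.438 to 3.79 FPKM. In RNA taken from many cell types at once, fewer cells of a type and less RNA per cell cannot be told apart.

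A bZIP protein holds a basic region that contacts DNA, mostly at sites with the core ACGT, and a leucine zipper through which it pairs with another bZIP protein. TGA factors, group D of the family, bind TGACG elements and work with the salicylic acid receptors of the NPR family. The G-box binding factors of group G bind CACGTG, an element of many light-regulated promoters. Factors bZIP17, bZIP28 and bZIP60 carry the response of the endoplasmic reticulum (ER) to unfolded proteins. Factors of groups C and S pair with each other and act when energy is low, and those of group A act in abscisic acid (ABA) responses.

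Of the 77 bZIP genes 44 reached 1 FPKM in at least 3 libraries and were tested. One fell and 1 rose at a Benjamini-Hochberg adjusted p under 0.05 over all 17221 tested genes (limma), or 4.55% of the 44. Of all tested genes 7.89% were called, 4.31% risen and 3.58% fallen. With values scaled by library size alone, 12 of 46 tested bZIP genes rose and none fell, or 26.1%, against 18.1% of all tested genes. GBF1, which binds G-boxes of light-regulated genes, fell, and bZIP17, a membrane-held factor released by ER stress, rose. At an unadjusted p under 0.05 there were 12 of 44, against 28.3% of all tested genes. The libraries of the groups did not overlap for 19 of the 44, or 43.2%, against 39.9% of all tested genes. Of these 12 were higher and 7 lower in the overexpressor, against 19.6% and 20.3%. The median log2 fold change was 0.04 over the 44 and −0.01 over all tested genes, with a median size of 0.39 in both, on the log2(FPKM + 1) scale, which understates the change of low genes.

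The 250 bases before the gene start are shown for the called genes, GBF1 and bZIP17, and for GBF3 and bZIP60, which had the highest log2 fold changes of the tested bZIP genes. They were read from the RefSeq copy of the same assembly, TAIR10.1, in which the 77 genes had the coordinates of the deposited table. Capitals mark CACGTG (the G-box, its own reverse complement) and TGACG with its reverse complement CGTCA.
GBF1 (chr4:17312489-17312738, minus strand): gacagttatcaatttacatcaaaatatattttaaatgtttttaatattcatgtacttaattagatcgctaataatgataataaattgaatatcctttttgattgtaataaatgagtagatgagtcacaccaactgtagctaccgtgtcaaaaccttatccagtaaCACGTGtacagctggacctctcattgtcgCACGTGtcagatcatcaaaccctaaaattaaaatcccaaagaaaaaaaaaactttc
GBF3 (chr2:18999930-19000179, plus strand): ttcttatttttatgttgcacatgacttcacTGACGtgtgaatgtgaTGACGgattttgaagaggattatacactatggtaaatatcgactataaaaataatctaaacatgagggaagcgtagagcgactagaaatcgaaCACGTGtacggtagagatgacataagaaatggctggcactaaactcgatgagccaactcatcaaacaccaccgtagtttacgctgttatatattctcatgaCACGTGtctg
bZIP60 (chr1:16137464-16137713, minus strand): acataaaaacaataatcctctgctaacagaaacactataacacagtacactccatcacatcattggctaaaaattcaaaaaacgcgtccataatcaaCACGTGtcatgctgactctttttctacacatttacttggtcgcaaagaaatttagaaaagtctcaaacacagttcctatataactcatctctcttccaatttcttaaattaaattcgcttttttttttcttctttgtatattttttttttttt
bZIP17 (chr2:17090557-17090806, minus strand): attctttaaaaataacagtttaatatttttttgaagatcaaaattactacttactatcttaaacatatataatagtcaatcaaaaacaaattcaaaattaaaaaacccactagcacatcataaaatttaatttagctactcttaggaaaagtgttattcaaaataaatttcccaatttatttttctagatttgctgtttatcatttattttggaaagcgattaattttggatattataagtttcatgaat
GBF1 has G-boxes that begin at −85 and −56 from the gene start, and GBF3 at −111 and −10, with TGACG at −220 and −204. bZIP60 has 1 G-box, at −153, and in the window of bZIP17 neither motif occurs. A G-box lies in this window of 14 of the 77 bZIP genes (18.2%) and of 6.48% of 27418 protein-coding genes. TGACG on either strand lies in 22.1% of the bZIP windows and in 18.6% of all, and ACGT in 53.2% and 44.1%. These matches are a description of the windows.

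GBF1 (AT4G36730, TAIR10 chromosome 4, 17309612 to 17312488) was at 85.4, 87.4 and 64.0 FPKM in Col-0 and at 33.6, 38.5 and 36.6 FPKM in EsANAC029-OE. All 3 overexpressor libraries lay below all 3 of wild type, and they lay close to one another. The mean fell from 79.0 ± 12.97 to 36.2 ± 2.47 FPKM (SD, n = 3 each), with a log2 fold change of −1.09 (SE 0.184, limma adjusted p = 0.0271). Without EsANAC029-OE replicate 1 it was −1.04 (limma adjusted p = 0.0199). It was not called without any 1 of the other 5 libraries, nor when values were scaled by library size alone.

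GBF2, its close relative, was at 21.5, 20.9 and 18.8 FPKM in Col-0 and at 10.7, 15.1 and 14.0 FPKM in the overexpressor. The groups did not overlap, and the difference missed the threshold (log2 fold change −0.60, SE 0.176, limma adjusted p = 0.0901). GBF3, a G-box factor known as inducible by ABA, lay on the other side. It was at 4.17, 9.26 and 7.84 FPKM in Col-0 and at 31.4, 17.4 and 15.2 FPKM in the overexpressor, with replicate 1 highest and no overlap. Its log2 fold change of 1.45 (SE 0.367) did not pass the test (limma adjusted p = 0.0641). The group also holds bZIP16, which acts in light and hormone responses, and bZIP68. bZIP16 was at 5.82 to 7.04 FPKM in wild type and 8.59 to 9.62 FPKM in the overexpressor (log2 fold change 0.44, limma adjusted p = 0.122). bZIP68 overlapped between the groups (8.65 to 15.5 and 10.3 to 12.7 FPKM). In group G 4 of 5 members had groups that did not overlap, 2 lower and 2 higher, against 39.9% of all tested genes, and 1 was called, against 7.89%.

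**Figure D1:**
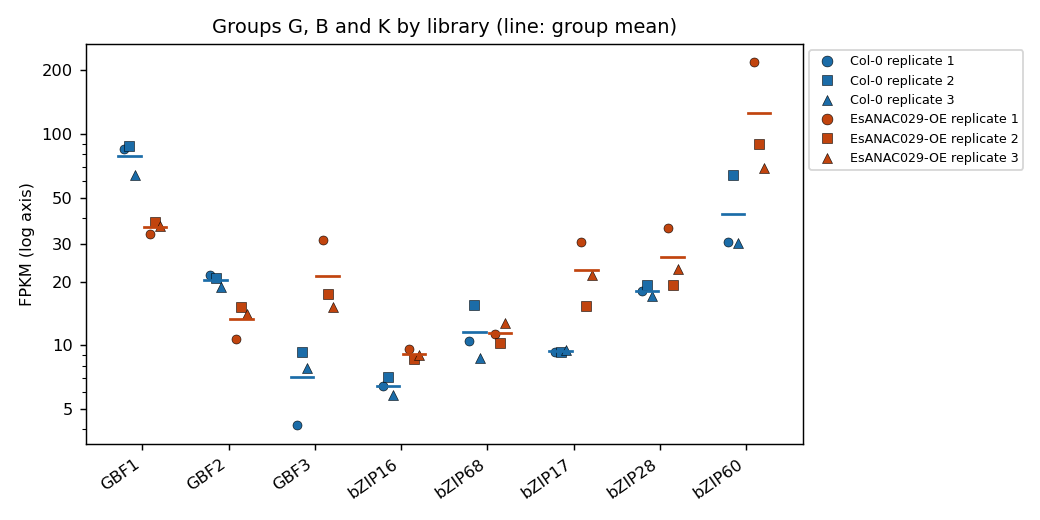
Level of the group G factors (GBF1, GBF2, GBF3, bZIP16, bZIP68) and of bZIP17, bZIP28 and bZIP60 in each library, in FPKM on a log axis, with the group mean as a line. GBF1 lies at 64.0 to 87.4 FPKM in Col-0 and 33.6 to 38.5 FPKM in EsANAC029-OE, and replicate 1 is the highest overexpressor library for GBF3, bZIP17, bZIP28 and bZIP60.

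The gene that rose, bZIP17 (AT2G40950, chromosome 2, 17087565 to 17090556), was at 9.24, 9.31 and 9.50 FPKM in Col-0 and at 30.9, 15.4 and 21.6 FPKM in EsANAC029-OE. Wild type varied little, and each overexpressor library lay above it. The mean went from 9.35 ± 0.134 to 22.6 ± 7.78 FPKM (SD, n = 3), a log2 fold change of 1.14 (SE 0.257, limma adjusted p = 0.0497). That adjusted p lies just under the threshold, and with a pseudocount of 0.1, other filters or limma-voom the gene was not called, nor without any 1 library other than EsANAC029-OE replicate 1 (0.89 and limma adjusted p = 0.0246 without that library). bZIP60 (AT1G42990), whose messenger RNA is spliced by the ER stress sensor IRE1 to give the active factor, had the highest mean of the family in the overexpressor. It was at 30.7, 64.2 and 30.6 FPKM in Col-0 and at 219, 89.8 and 69.0 FPKM in replicates 1, 2 and 3. The groups did not overlap, with replicate 1 far above the others, and the gene missed the threshold (log2 fold change 1.47, SE 0.505, limma adjusted p = 0.123). The table gives 1 value a gene and cannot tell its spliced from its unspliced form. bZIP28, the other main membrane-held factor, was at 18.0, 19.3 and 17.1 FPKM and at 35.8, 19.3 and 23.0 FPKM, with replicate 2 inside the wild-type range (log2 fold change 0.45, limma adjusted p = 0.277). bZIP49, the third such factor, had 0, 0 and 4 reads in wild type and 8, 8 and 12 in the overexpressor and was not tested.

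A list of 20 genes of the ER stress response holds chaperones and folding enzymes, the sensors IRE1A and IRE1B, and others. Of its 19 tested members 12 rose and none fell, where 4.31% and 3.58% of all tested genes did. The median log2 fold change was 1.62, against −0.01 over all tested genes. This list was chosen with earlier results of these data known, so it is not independent evidence of a direction. The genes with the smallest p were CNX2, BIP2 and P58IPK. CNX2, a calnexin that folds glycoproteins (AT5G07340), was at 12.6, 13.4 and 12.5 FPKM in Col-0 and at 49.5, 27.8 and 30.4 FPKM in the overexpressor (log2 fold change 1.37, limma adjusted p = 0.0294). BIP2, an ER chaperone of the HSP70 family (AT5G42020), had a log2 fold change of 2.07 (limma adjusted p = 0.0335), and P58IPK, a co-chaperone (AT5G03160), one of 1.48 (limma adjusted p = 0.0355). The sensors were IRE1A, with overlapping groups (log2 fold change 0.02), and IRE1B, at 9.60 to 10.5 FPKM in wild type and 8.40 to 9.43 FPKM in the overexpressor (−0.17), and neither was called. By library the median of the list against the wild-type mean was 2.49, 1.17 and 1.28 in replicates 1, 2 and 3. Without replicate 1, 15 members rose, where 6.85% of all tested genes did. Without replicate 3 only 2 rose, where 334 of all 16783 tested genes did. Without any 1 wild-type library or EsANAC029-OE replicate 2 none was called, where 0.348% to 1.06% of all tested genes were. Limma-voom called 7, against 4.77% of all tested genes. Limma without a filter on low values called 1, against 3.29%. No member had an adjusted p under 0.01.

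Of the 10 TGA factors none was called by limma or by limma-voom, and 3 of the 7 tested had an unadjusted p under 0.05, where 28.3% of all tested genes did. With library size alone limma called 5 of them, and with upper-quartile factors 1, TGA5. All 7 had a positive log2 fold change, under each scaling tried, with a median of 0.91. In 6 of the 7 every overexpressor library lay above every wild-type library, against 19.6% of all tested genes. Their summed level was 47.6 ± 1.85 FPKM in Col-0 and 100.5 ± 43.2 FPKM in the overexpressor (SD, n = 3). Without EsANAC029-OE replicate 1, TGA1, TGA3 and TGA5 rose. In that fit 4 bZIP genes rose, where 6.85% of all tested genes did, and 3 fell, where 9.51% did (16.4% in all). The deviation from the wild-type mean was largest in replicate 1 for all 7.

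TGA1 and TGA4 form the first clade, known in basal resistance and nitrate responses. TGA1 (AT5G65210, chromosome 5, 26057533 to 26061157) was at 4.18, 3.90 and 3.52 FPKM in Col-0 and at 19.4, 7.43 and 9.24 FPKM in EsANAC029-OE. The groups stood apart, with replicate 1 highest (log2 fold change 1.31, SE 0.341, limma adjusted p = 0.0682), and without that library the gene was called at 0.93 (SE 0.154, limma adjusted p = 0.0193). TGA4 was at 4.77, 3.72 and 3.66 FPKM and at 7.99, 4.80 and 5.46 FPKM, where replicate 2 lay barely above wild type replicate 1 (log2 fold change 0.47, limma adjusted p = 0.228, and 0.28 without overexpressor replicate 1).

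The second clade, TGA2, TGA5 and TGA6, acts redundantly with NPR1 in systemic acquired resistance. TGA2 and TGA5 are neighbours on chromosome 5, with 159 bases between the end of TGA2 at 2154586 and the start of TGA5. TGA5 (AT5G06960) was at 7.37, 8.21 and 8.05 FPKM in Col-0 and at 25.5, 13.8 and 15.2 FPKM in the overexpressor (log2 fold change 1.06, SE 0.249, limma adjusted p = 0.0546, and 0.80 with limma adjusted p = 0.0172 without replicate 1). TGA2 was at 5.38, 5.40 and 5.62 FPKM and at 8.71, 6.95 and 6.46 FPKM (log2 fold change 0.36, limma adjusted p = 0.216). TGA6, the lowest of the 7, was at 2.28, 2.67 and 2.38 FPKM and at 5.06, 2.69 and 3.51 FPKM (log2 fold change 0.44, limma adjusted p = 0.265). The neighbours thus both lay above wild type in each library, TGA5 further than TGA2, and the difference between them was not tested. The longest exact run shared by spliced transcripts was 29 bases for TGA2 and TGA5 and 35 for TGA2 and TGA6, and it was at most 54 for any pair of the 77.

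The third clade holds TGA3, which binds NPR1 and takes part in activation of PR1, and TGA7. TGA3 (AT1G22070, chromosome 1, 7789133 to 7792139) was the most abundant TGA factor. It was at 18.5, 22.0 and 19.1 FPKM in Col-0 and at 52.0, 29.2 and 36.2 FPKM in the overexpressor (log2 fold change 0.91, SE 0.238, limma adjusted p = 0.0689, and 0.69 with limma adjusted p = 0.0375 without replicate 1). TGA7 was at 3.80, 3.79 and 4.49 FPKM in Col-0 and at 31.4, 6.28 and 4.12 FPKM in EsANAC029-OE. Replicate 1 carried most of that mean and replicate 3 lay inside the wild-type range, so the log2 fold change of 1.09 (SE 0.667, limma adjusted p = 0.334) was 0.28 without replicate 1.

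The remaining TGA factors act in flower and anther development and were below the filter. PAN, which sets floral organ number, had 3, 1 and 1 reads in wild type and 0, 51 and 1 in EsANAC029-OE replicates 1, 2 and 3, so it was seen above the floor in overexpressor replicate 2 alone. TGA9 had 0, 5 and 0 reads and then 32, 42 and 9, and TGA10 had 0 to 2 and 0 to 6. Replicate 2 was also the library with the highest sums of root and flower markers (291 and 3.79 FPKM), and their part in these counts was not tested.

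**Figure D2:**
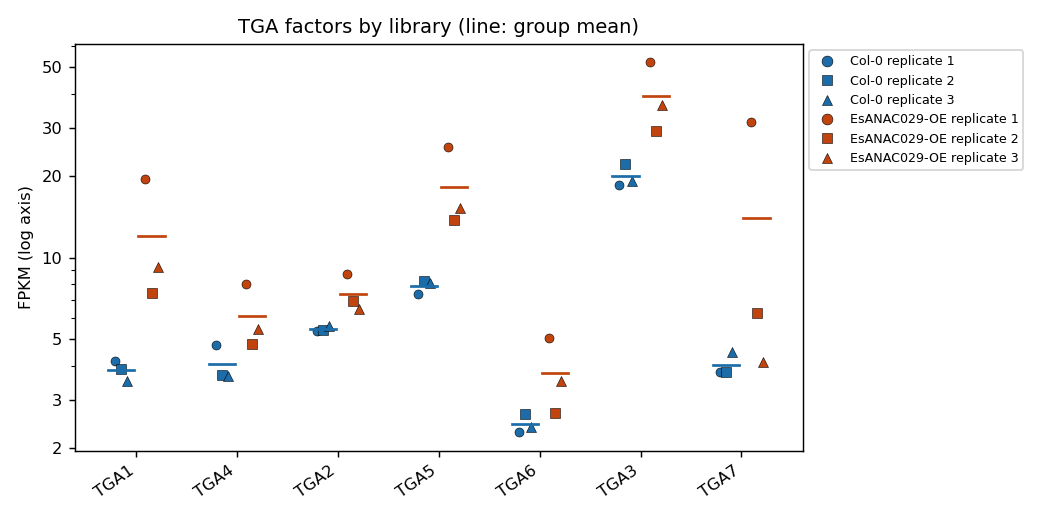
Level of TGA1 to TGA7 in each library, in FPKM on a log axis, ordered by clade, with the group mean as a line. EsANAC029-OE replicate 1 (circle) is the highest library for each gene, and only TGA7 has an overexpressor library inside the wild-type range.

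Among 15 listed partners of TGA factors 11 were tested, and 4 rose and none fell, where 4.31% and 3.58% of all tested genes did. The median log2 fold change of the 11 was 2.09. GRXS13, a glutaredoxin of the plant-specific class that binds TGA factors (AT1G03850), was at 2.36, 2.12 and 0.489 FPKM in Col-0 and at 42.2, 29.3 and 36.0 FPKM in the overexpressor (log2 fold change 3.87, limma adjusted p = 0.00605). NIMIN2, a small protein that binds NPR1 (AT3G25882), had a log2 fold change of 4.00 (limma adjusted p = 0.00719). NPR2, a relative of NPR1 (AT4G26120), was at 0.473, 0.898 and 0.442 FPKM in Col-0 and at 17.2, 5.55 and 5.51 FPKM in the overexpressor. It passed the filter through the overexpressor libraries alone, so its call is not independent of the filter. Its log2 fold change was 2.53 (limma adjusted p = 0.0277). Limma-voom did not call NPR2 (limma-voom adjusted p = 0.0654), and it was not tested when any 1 overexpressor library was left out. GRXC9, also a TGA-binding glutaredoxin, rose as well (3.51, limma adjusted p = 0.0291), and this gene was chosen after its values were seen. The receptors themselves were at higher values in each overexpressor library without passing the test, with log2 fold changes of 0.56 for NPR1, 0.90 for NPR3 and 0.90 for NPR4. SCL14, the co-activator of TGA factors in detoxification, overlapped between the groups (log2 fold change 0.21). Limma-voom called 2 members, against 4.77% of all tested genes. Without any 1 wild-type library or EsANAC029-OE replicate 2 limma called 1 or 2, where 0.348% to 1.06% of all tested genes were called. The list was chosen with earlier results known, so it is not independent evidence of a direction.

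Both genes of group E lay lower in the overexpressor, and they had the most negative log2 fold changes of the tested bZIP genes. They were chosen after their values were seen. bZIP61 (AT3G58120, chromosome 3, 21520974 to 21523518) was at 43.3, 45.5 and 55.8 FPKM in Col-0 and at 0.0426, 9.35 and 22.0 FPKM in overexpressor replicates 1, 2 and 3. bZIP34 (AT2G42380), its close relative with a known part in pollen development, was at 9.19, 10.4 and 12.1 FPKM in the Col-0 libraries and was listed at 0, 1.84 and 5.08 FPKM in the overexpressor. Both genes thus ran in the same order over the 3 overexpressor libraries, which differed widely. Their log2 fold changes were −2.96 (SE 1.08, limma adjusted p = 0.138) and −2.15 (SE 0.624, limma adjusted p = 0.0858). Without replicate 1 the spread was smaller and both fell, by 1.66 and 1.47 on the log2 scale (limma adjusted p = 0.032 and 0.0396). In that fit 9.51% of all tested genes fell, against 3.58% with all libraries. The leaf marker sum ran in the same order, with 2244, 8549 and 14937 FPKM in replicates 1, 2 and 3, and its part in the values of group E was not tested. The transcripts of the pair share an exact run of 44 bases.

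In groups A, C, F, I and S none of the 25 tested members was called by limma or limma-voom. Of all tested genes 7.89% and 4.77% were called. None of the 25 had an unadjusted p under 0.05, where 28.3% of all tested genes did. With library size alone ABF2 and bZIP69 rose, where 2749 of all 17247 tested genes did. In group A, ABF2, ABF3 and ABF4 activate ABA-responsive genes. ABF2 was at 5.23 to 6.10 FPKM in wild type and 7.22 to 10.8 FPKM in the overexpressor (log2 fold change 0.48, limma adjusted p = 0.177). ABF3 was at 10.9, 15.9 and 14.7 FPKM and at 14.7, 8.80 and 6.61 FPKM, and ABF4 at 11.3 to 12.1 FPKM and at 22.5, 9.73 and 11.1 FPKM, so that replicate 1 stood above the other overexpressor libraries for both. ABI5 and EEL, known from seeds, were named with earlier results of these data known. They were under 1 FPKM in every wild-type library and not tested. They had 17 to 20 and 18 to 21 reads in wild type and 64, 93 and 28 and 69, 158 and 33 in EsANAC029-OE, above wild type in each library.

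In group C, which pairs with group S, bZIP63 was at 45.3, 22.5 and 27.2 FPKM in Col-0 and at 17.4, 17.6 and 28.2 FPKM in the overexpressor (log2 fold change −0.54, limma adjusted p = 0.315). In group S, bZIP53, an activator of proline and asparagine metabolism, was at 37.7, 81.2 and 68.6 FPKM and at 81.8, 71.6 and 75.1 FPKM (log2 fold change 0.35, limma adjusted p = 0.489). bZIP1, its partner in low-energy responses, was at 18.6 to 21.9 and 13.8 to 20.1 FPKM (−0.29, limma adjusted p = 0.355). bZIP11, whose translation sucrose represses, was at 5.81, 11.5 and 19.95 FPKM and at 9.60, 12.2 and 10.1 FPKM (−0.07, limma adjusted p = 0.932). The groups overlapped for all 4 tested genes of each of groups C and S. With library size alone, bZIP1 and bZIP11 took the opposite sign (0.06 and 0.27). Single wild-type libraries moved these values: bZIP11 was at −0.48 without replicate 1 and at 0.33 without replicate 3, and bZIP53 at 0.03 without replicate 1. Of 17 group S genes 13 were not tested, and 9 were under 1 FPKM in every library. bZIP58 had no read in wild type and 0, 32 and 0 in the overexpressor, again in replicate 2 alone.

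In group I, bZIP18 and bZIP52 lay lower in each overexpressor library than in wild type. Both, and bZIP69 below, were chosen with earlier results of these data known. bZIP52 was at 8.37, 10.3 and 9.31 FPKM and at 2.67, 7.44 and 7.82 FPKM (log2 fold change −0.66, limma adjusted p = 0.28), and bZIP18 at 5.33 to 6.62 and 1.60, 4.48 and 4.86 FPKM (−0.68, limma adjusted p = 0.246). In both, replicate 1 was the lowest, and without it the log2 fold changes were −0.30 for bZIP18 and −0.25 for bZIP52. bZIP69 lay higher in each overexpressor library, at 8.37 to 9.26 and 10.3 to 11.3 FPKM (0.27, limma adjusted p = 0.269). VIP1, which enters the nucleus on osmotic or mechanical stress, overlapped between the groups (33.9 to 42.0 and 25.9 to 47.1 FPKM). The zinc sensors of group F, bZIP19 and bZIP23, overlapped too, with log2 fold changes of 0.19 and −0.14.

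**Figure D3:**
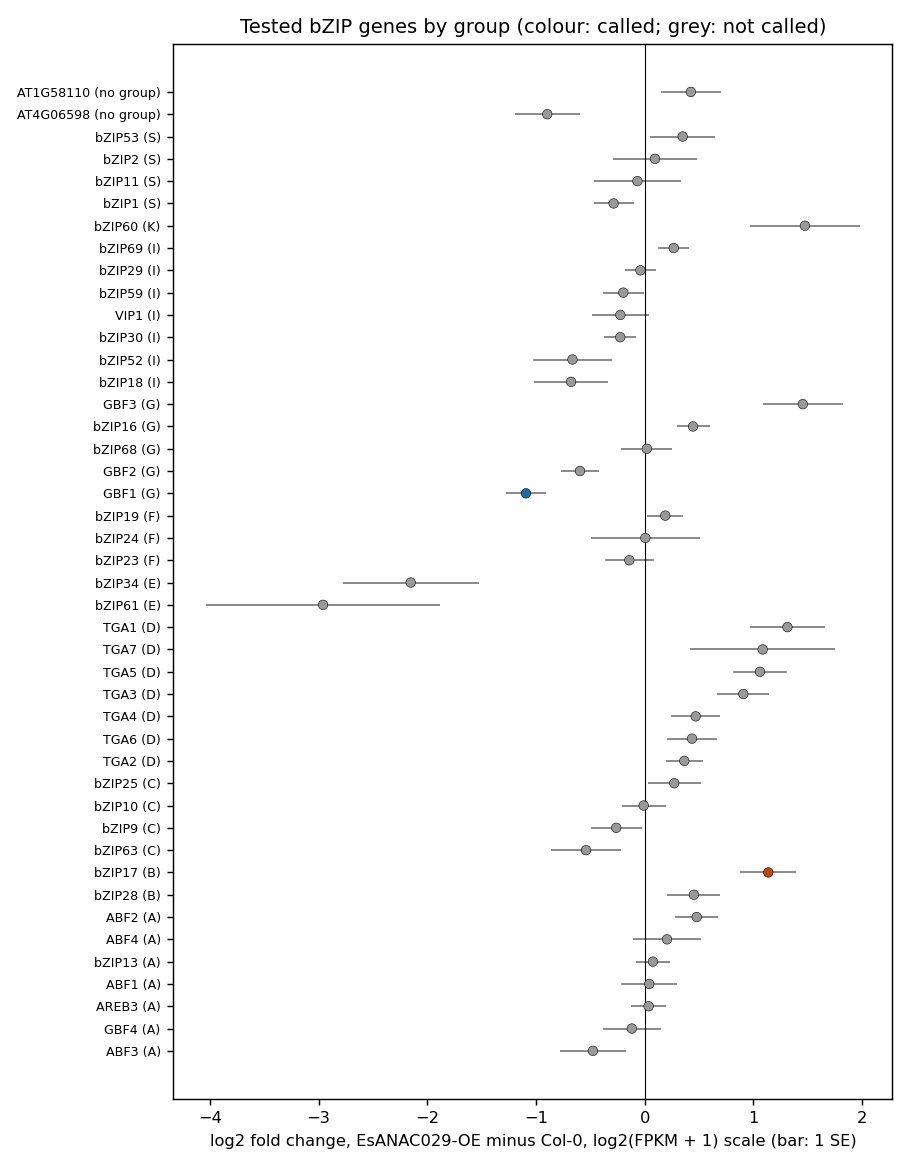
Log2 fold change of the 44 tested bZIP genes (EsANAC029-OE minus Col-0, log2(FPKM + 1) scale) with 1 SE, ordered by group, which stands in parentheses. Colour marks GBF1 (−1.09) and bZIP17 (1.14), the called genes, and bZIP61 has the most negative value and the widest bar.

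In the low-energy list none of 19 tested genes was called by limma or limma-voom, and 5 had an unadjusted p under 0.05, 1 higher and 4 lower, or 26.3%, against 28.3% of all tested genes. The higher 1, BCAT2, was under 1 FPKM in all Col-0 libraries and passed the filter through the overexpressor alone. Without replicate 1, TPS8 and TPS11 fell, where 9.51% of all tested genes did. In the ABA response list none of 16 tested was called by either, 2 (12.5%) had an unadjusted p under 0.05, both lower, and the groups overlapped for all 16. Wild-type libraries themselves differed there, with RD29A, a dehydration-induced gene, at 35.1, 220 and 578 FPKM in replicates 1, 2 and 3. In the zinc deficiency list none of 5 tested was called by either, and 1 had an unadjusted p under 0.05. These genes outside the naming rule were chosen after their values were seen.

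**Figure D4:**
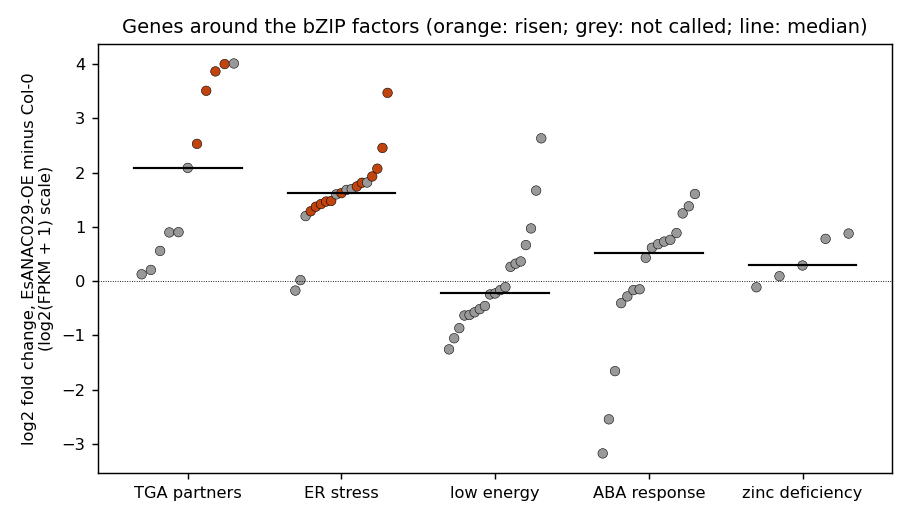
Log2 fold change (EsANAC029-OE minus Col-0, log2(FPKM + 1) scale) of the tested genes in 5 lists around the bZIP factors, with the median of each list as a line and risen genes in colour. The medians are 2.09 for TGA partners and 1.62 for ER stress, and −0.23, 0.52 and 0.29 for low energy, ABA response and zinc deficiency.

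By level, GBF1 had the highest mean of the family in wild type (79.0 FPKM), followed by bZIP53 (62.5), bZIP25 (48.3), bZIP61 (48.2) and bZIP60 (41.8). In the overexpressor the order by mean was led by bZIP60 (126), bZIP53 (76.2), bZIP25 (60.3), TGA3 (39.1) and GBF1 (36.2), while bZIP61 stood at rank 31. bZIP60 was at 219 FPKM in replicate 1, and in replicate 3 it lay below bZIP53 (69.0 and 75.1 FPKM). Among the first 15 in wild type each gene's wild-type libraries overlapped those of the next. Differences between neighbours were not tested in either order. EsANAC029-OE replicate 1 deviated most from the wild-type mean for 36 of the 44 tested bZIP genes (81.8%), against 61.6% of all tested genes. Of the 33 genes not tested 10 were listed at 0 in all libraries, and 23, with these 10 among them, were under 1 FPKM in all. The others reached 1 FPKM in 1 or 2 libraries.

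**Figure D5:**
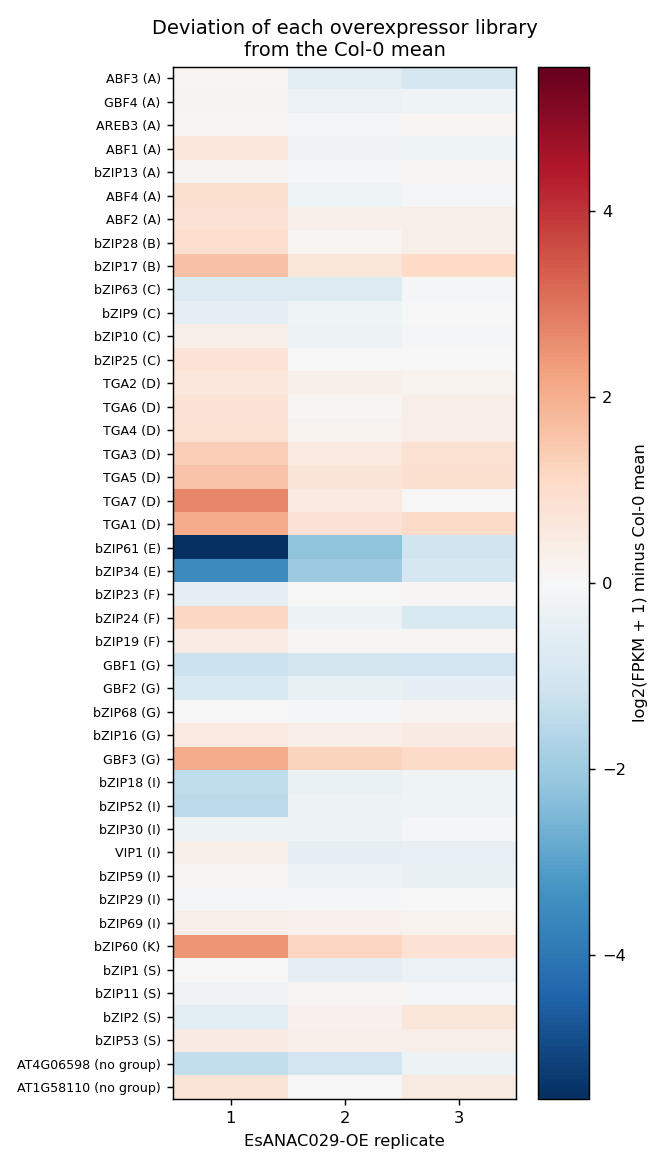
Deviation of each EsANAC029-OE library from the Col-0 mean for the 44 tested bZIP genes, on the log2(FPKM + 1) scale, with the group in parentheses (red higher, blue lower). The colours are deepest in replicate 1, in red for TGA1, TGA7, GBF3 and bZIP60 and in blue for bZIP61 and bZIP34.

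Of the 505 marked genes that are not annotated as bZIP 334 were tested, and 16 rose and 9 fell, or 7.49%, close to the 7.89% of all tested genes. They are of many kinds: 19 carry a RING finger domain, 16 a C2 domain and 15 a cupin domain, and 19 of all 582 marked genes do not code for a protein. They hold 15 genes of the ABCC family of transporters, of which 14 were tested. Of the 14, 4 rose and none fell, where 4.31% and 3.58% of all tested genes did. Those that rose were ABCC2 (log2 fold change 1.24), ABCC4 (2.25), ABCC6 (2.50) and ABCC7 (2.80), and the other 10 ran from −1.61 for ABCC14 to 2.11 for ABCC3. LURP1, a gene of resistance to a downy mildew (1.84), and the ER chaperone SHD (1.47), which the ER stress list also holds, rose too. EXPA16, a wall-loosening expansin, had the largest fall of them (−3.45, limma adjusted p = 0.00558). These were named after their values were seen.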

How the data were processed

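Messenger RNA of 6 seedling libraries was measured by paired-end sequencing. The build TAIR10 and the tools HISAT2, CASAVA 1.8 and edgeR are named in the submitters' processing notes. What each tool did, the counter and the strand setting are not stated there, so reads of a gene and of an overlapping antisense gene cannot be told apart. The authors deposited a table in FPKM, a unit read from the values, beside each gene's length in bases. Multiplied by gene length and divided by what 1 read is worth in its library, the smallest such product above 0, 100% of the values came out as whole reads (tolerance 1e-06).

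Genes that reached 1 FPKM in 3 libraries were fitted for genotype on log2(FPKM + 1) with limma 3.58.1 in R 4.3.3 (trended variance, two-sided), with Benjamini-Hochberg adjustment over all 17221. Members and lists were chosen with earlier results of these data known. The restriction to 77 annotated genes followed the reading of the annotation, not of the values. By rule the named genes were called bZIP genes, all TGA factors, 13 further factors fixed by name, and up to 3 called genes with the smallest p of each list. Others are marked as chosen after their values were seen. Further named genes, such as ABI5, EEL, bZIP16, bZIP18, bZIP52, bZIP69 and VIP1, are in none of these classes. They too were chosen with earlier results of these data known. Alternatives were other scalings, filters, pseudocount, limma-voom on the recovered reads, a replicate block, a threshold of 0.01 and leaving out each library.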

Additional observations from a re-analysis of the deposited data

How the results depend on the processing

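With library size alone the median log2 fold change over all tested genes moved from −0.01 to 0.31, and 3126 genes were called (2749 risen, 377 fallen) against 1359 (743 and 616). Under it 12 bZIP genes rose and 0 fell, 5 TGA factors, 9 TGA partners, 3 low-energy genes and 1 zinc deficiency gene were called, and of the marked genes not annotated as bZIP 58 rose and 5 fell. With upper-quartile factors 2 bZIP genes rose and 1 TGA factor (TGA5) was called. No bZIP gene rose with a filter of 0.5 FPKM, no filter, a pseudocount of 0.1 or limma-voom (0 in each), while GBF1 fell in all of these. Limma-voom called 821 genes in all, 2 TGA partners, 7 ER stress genes and 11 risen genes among the marked others, and no filter 819 in all with 1 ER stress gene. At an adjusted p under 0.01 there were 0 risen and 0 fallen bZIP genes, 2 TGA partners, 0 ER stress genes, and 1 risen and 1 fallen of the marked others. Counting all 582 marked genes gave 17 risen and 10 fallen. The cause of these shifts was not tested.

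Leaving out 1 library gave 0 to 4 risen and 0 to 3 fallen bZIP genes, 0 to 3 TGA factors, 1 to 4 TGA partners, 0 to 15 ER stress genes, 0 to 2 low-energy genes, 0 to 1 ABA response genes, 0 zinc deficiency genes, and 0 to 16 risen and 1 to 20 fallen of the marked others. Over all genes it gave 59 (without wild type replicate 3) to 2748 (without EsANAC029-OE replicate 1), and without EsANAC029-OE replicate 3 bZIP34 and AT4G06598 fell. No paired origin is stated, and same-numbered libraries did not deviate together (correlations −0.199, −0.0531 and −0.105). A fit with the replicate block called 16 genes in all, with 0 risen and 0 fallen bZIP genes, 0 TGA factors, 1 TGA partner, 0 ER stress genes, and 0 risen and 0 fallen of the marked others.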
